A study of Paralichthys olivaceus with 24 samples.

Results

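The change in spleen gene expression between 3 h and 24 h after poly(I:C) was measured in Japanese flounder (Paralichthys olivaceus, a marine flatfish) held at 15 °C. The comparison rests on 6 of the 24 arrays of the series, the 3 labelled poly(I:C), 15 °C and 24 h and the 3 labelled poly(I:C), 15 °C and 3 h, chosen by these labels and not by their values. For comparison, 3 arrays each of fish given DEPC-treated water, the study's control, sampled at 15 °C after 3 h or 24 h were used, and 3 arrays for each of these times from poly(I:C) fish at 25 °C. The 3 arrays for each time from water fish at 25 °C entered the shared spread of the tests. Their levels are given for some named probes and in figures. All were single-colour (Cy3) arrays of spleen RNA, and the labels give no strain, age, dose or route of the treatment. Whether every array stands for its own fish is not in the labels. The p-values therefore reflect only how far these samples scatter, and part of that scatter may be technical.

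Poly(I:C) is a synthetic double-stranded RNA that cells take for viral RNA. Vertebrate cells, those of bony fish included, sense it with endosomal Toll-like receptors and with cytoplasmic RNA helicases, which switch on type I interferon. Interferon then acts on its receptor and turns on a large set of antiviral genes in a later wave. The spleen of bony fish is a main blood-filtering and lymphoid organ, and the body temperature of a flounder follows that of the water. Spleen tissue holds several cell types, and in such bulk RNA fewer cells of a type and less RNA per cell cannot be told apart.

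The files name the target of each probe by a contig code or a database entry and pair none with a gene, and 0 of 14478 target names matched the gene table used here. The results are therefore given by probe, and roles, pathways and marker lists of cell types could not be read. Signals are log2 values relative to the 75th percentile of the array, so that 0 is the signal of a fairly bright probe and -6 is close to background. All 6 arrays lay on the same slide. The 3 arrays at 3 h lay on one side of it together with replicate 3 of the 24 h group, and replicates 1 and 2 of the 24 h group lay on the other side. The share of probes well above background was 80.6% to 84.2% at 3 h, 83.6% for replicate 3 at 24 h, and 94.2% and 91.2% for replicates 1 and 2 at 24 h. Across the 13377 tested probes the correlation between arrays was 0.982 to 0.984 within the 3 h group and 0.985 to 0.989 within the 24 h group. Between the groups it was 0.937 to 0.944. A single probe had a median SD between arrays of 0.16 log2 (3 h) and 0.17 log2 (24 h).

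Between 3 h and 24 h, 2560 probes rose and 2431 fell in poly(I:C) fish at 15 °C, which is 37.3% of the tested probes (limma, adjusted p under 0.05). By direction, 19.1% of the tested probes were called higher and 18.2% lower. The median change of the probes that rose was 0.82 log2, and that of the probes that fell was -0.92 log2. The median change of all tested probes was 0.03 log2. The 24 h arrays lay all above or all below the 3 h arrays for 7044 probes (52.7% of those tested). The groups did not overlap in 2512 of the 2560 probes that rose and in 2353 of the 2431 that fell. The times were not spread evenly over both sides of the slide. With the side as a term in the fit 4517 probes were called, 2240 higher and 2277 lower. That term takes the side as having the same effect on all 3 slides, so it does not remove an effect particular to this slide. On the side that held both times, with replicate 3 at 24 h against the 3 arrays at 3 h and the spread taken from all 24 arrays, 3332 were called, 1653 higher and 1679 lower.

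**Figure D1:**
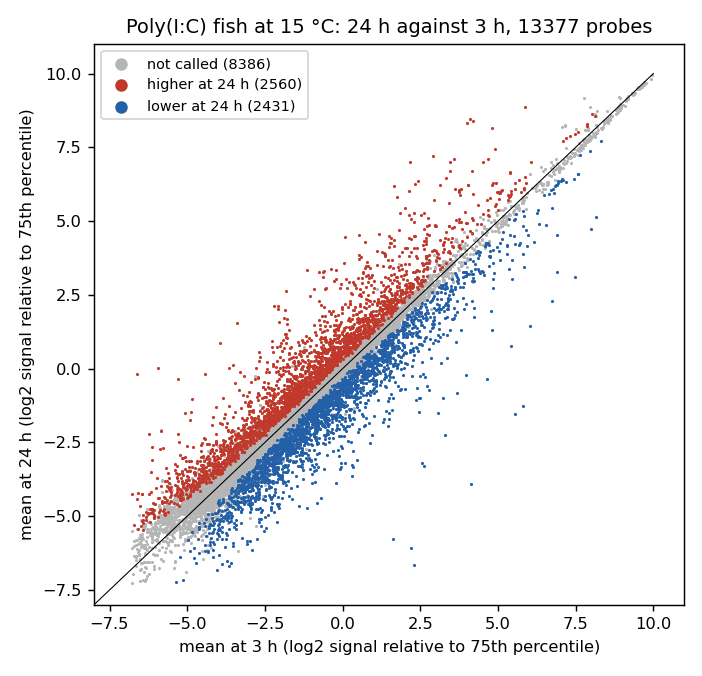
Mean log2 signal at 24 h (vertical axis) against 3 h (horizontal axis) in poly(I:C) fish at 15 °C, 1 point per tested probe, with probes called higher in red and lower in blue and the line of no change in black. The 2560 probes above and 2431 below the line are spread over most of the range of signal.

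Most called changes were small. A change of at least 2-fold was found for 956 probes that rose and 1066 that fell. At 4-fold or more 262 rose and 194 fell, and at 8-fold or more 75 rose and 55 fell. At 16-fold or more the counts were 21 and 18. At 32-fold or more 2 rose and 9 fell, so most of the few changes of that fitted size were falls. Both of these rises and 3 of these falls failed the background criterion on every array of the dimmer time, and their fitted size is not fully measured.

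**Figure D2:**
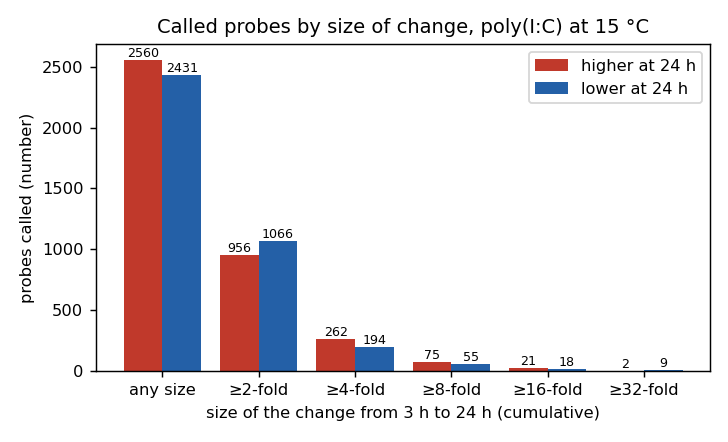
Number of probes called higher (red) and lower (blue) at 24 h than at 3 h in poly(I:C) fish at 15 °C, by the smallest fold change counted. The bars are cumulative, from 2560 and 2431 at any size to 2 and 9 at 32-fold or more.

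Brighter probes were called more often. When the probes were split into 4 bins of equal size by their mean signal over all groups, 13.5% of the dimmest bin rose and 9.18% fell. In the brightest bin 25.2% rose and 23.2% fell. The strongest rises lay there as well, with 117 of the 262 probes that rose at least 4-fold in the brightest bin and 44 in the dimmest. The mean that set the bins includes the arrays that chose the called probes, so bin and size of change are not separate. The falls of at least 4-fold were spread more evenly, with 59 in the brightest bin and 35 in the dimmest. The median size of a called change was 1.06 log2 in the dimmest bin and 0.86 log2 in the brightest.

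Of the probes made for sequences already in public databases, 337 were tested, and 58 rose and 106 fell (17.2% and 31.5%). Of the 13026 probes for JFC contigs, 2500 rose and 2321 fell (19.2% and 17.8%). The median change was -0.16 log2 for database sequences and 0.03 log2 for these contigs. With quantile scaling 52 and 113 database probes rose and fell, and with median scaling 61 and 99. The difference between both kinds of target was not tested. Of the 337 database probes 21 rose and 16 fell at least 4-fold. Of the 13026 probes for JFC contigs 241 rose and 178 fell as much, and of all 13377 tested probes 262 and 194 did. These shares were not tested against each other either.

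Probe CUST_7138_PI426483990 (contig JFC26366_1_code) had the largest rise measured at both times. Its log2 signal was -3.46, -3.13 and -3.61 on the 3 arrays at 3 h and 1.64, 0.99 and 2.03 at 24 h. All 24 h arrays lay far above all 3 h arrays, and the rise was 4.95 log2 (SE 0.32, limma adjusted p = 7.5e-10). In water at 15 °C the signal was -3.0 ± 0.21 at 3 h and -3.32 ± 0.25 at 24 h (SD, n = 3), so the 3 h poly(I:C) arrays were near the water level. At 25 °C the same probe stood at 1.53 ± 0.10 (SD, n = 3) already at 3 h after poly(I:C) and at 0.16 ± 0.39 at 24 h.

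Probe CUST_11467_PI426483990 (contig JFC24582_1_code) was named next, because only probes that failed the background criterion on all arrays of a time were ranked by a bound. Its log2 signal was -5.79, -6.64 and -3.42 at 3 h and -0.80, 0.07 and -0.31 at 24 h, a rise of 4.94 log2 (SE 1.34, limma adjusted p = 0.0065). It was well above background on 1 of the 3 arrays at 3 h and on all 3 at 24 h, so the size of this rise is not fully measured, and it was 2.57 log2 after normexp correction. The water arrays at 15 °C had it at -6.72, -7.35 and -1.32 at 3 h and at -6.51, -1.38 and -5.44 at 24 h. A single water array in each group was thus nearly as bright as the 24 h poly(I:C) arrays. The difference between the poly(I:C) and the water course was 4.25 log2 (SE 1.89, limma adjusted p = 0.11) and was not called. On the side of the slide that held both times alone the change was 4.97 (SE 1.94, limma adjusted p = 0.071), which is no longer past the threshold.

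Probe CUST_9569_PI426483990 (contig JFC00907_1_code) had the largest fall measured at both times. Its log2 signal was 3.70, 4.13 and 4.56 at 3 h and -4.32, -3.28 and -4.15 at 24 h, a change of -8.04 log2 (SE 0.44, limma adjusted p = 1.6e-10). All 24 h arrays lay far below all 3 h arrays. It also fell in water at 15 °C, from -1.19 ± 0.28 at 3 h (SD, n = 2, as the spot of 1 array was marked as an outlier) to -4.28 ± 0.58 (SD, n = 3), a change of -3.09 log2 (SE 0.49, limma adjusted p = 0.0026). The fall in poly(I:C) fish was larger than that in water by 4.95 log2 (SE 0.66, limma adjusted p = 2.2e-05). At 24 h both treatments were at about the same level, with a difference of 0.37 log2 (SE 0.44, limma adjusted p = 0.56).

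Probe CUST_7260_PI426483990 (contig JFC24307_1_code) went from 1.89, 2.23 and 2.74 at 3 h to -6.14, -7.15 and -6.62 at 24 h (log2 signal). None of the 24 h arrays had it well above background. The fitted change was -8.92 log2 (SE 0.39, limma adjusted p = 7.4e-12), and -5.16 log2 after normexp correction (limma adjusted p = 1.6e-06). Measured against the dimmest signals that were still well above background, the probe was at least 178.8-fold (7.48 log2) lower at 24 h without that correction. This bound was not tested, and it is larger than the change after the correction. The group means of the probe were 2.29 ± 0.43 and -6.63 ± 0.51 (SD, n = 3). The 15 °C water arrays had it at -2.94 ± 0.14 at 3 h and likewise not above background at 24 h. At 25 °C it was well above background on every 3 h array, at -1.09 ± 0.18 with poly(I:C) and -0.89 ± 0.88 in water (SD, n = 3). At 15 °C both probes with the largest falls were thus bright at 3 h after poly(I:C), dimmer at 3 h after water, and low at 24 h in both treatments.

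**Figure D3:**
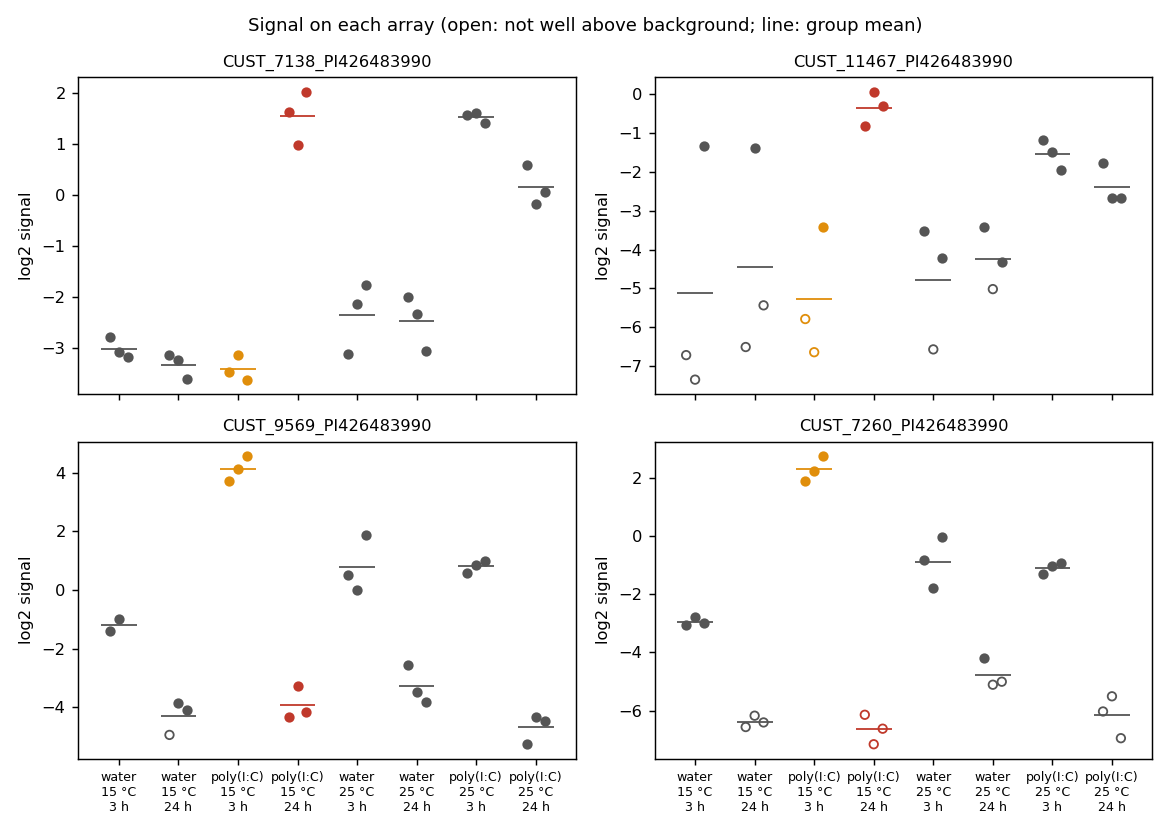
Log2 signal on each array for 2 probes named for their rise (top) and 2 named for their fall (bottom) between 3 h (orange) and 24 h (red) in poly(I:C) fish at 15 °C, with the other 6 groups in grey, open circles for arrays not well above background and a line at each group mean. The 24 h and 3 h arrays do not overlap in any panel, and CUST_9569_PI426483990 and CUST_7260_PI426483990 are also lower at 24 h than at 3 h in water.

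The levels of the changed probes were also set against those in water. The 15 °C water arrays were used as a scale here, by asking whether a poly(I:C) group mean lay above, within or below the range of the 6 water arrays of both times. Of the 2555 probes that rose and had a value on every water array, 60.2% lay within the water range at 3 h, 29.5% below it and 10.3% above it. At 24 h 87.5% lay above the water range. Of all tested probes 26.4% lay above and 27.04% below it at 24 h, and 9.596% above and 15.7% below it at 3 h. The most frequent path of a probe that rose was from within the range to above it (1420 probes), and 553 went from below it to above it. A further 196 went from below the range back into it.

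Of the 2427 probes that fell and had a value on every water array, 74.2% lay within the water range at 3 h, 15.2% above it and 10.6% below it. At 24 h 87.3% lay below it. The path from within to below was taken by 1697 probes, and 162 went from above the range back into it. In 165 the mean passed from above the range to below it. Since the same poly(I:C) arrays chose these probes and give their place, these shares describe the course and are no separate support for it.

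Probes with larger falls were more often above the water range at 3 h. The 3 h arrays give both the size of a change and this place, so size and place are not separate. Of 54 probes that fell at least 8-fold, 53.7% were above the water range at 3 h, and of 17 that fell at least 16-fold 64.7% were. Above it were also 34.7% of 193 that fell at least 4-fold and 15.2% of all that fell. Against water of the same time, 299 probes differed at 3 h (2.24%), 227 higher (1.7%) and 72 lower (0.538%). At 24 h 5049 differed (37.7%), 2534 higher (18.9%) and 2515 lower (18.8%). The poly(I:C) arrays at 24 h lay on 1 slide and the water arrays at 24 h on another, so treatment and slide cannot be told apart there. This limits every difference from water at 24 h given here. Of the water arrays at 3 h, replicates 1 and 2 shared the slide of the poly(I:C) arrays and replicate 3 did not, so both counts are not alike in this. Replicates 1 and 2 lay on the other side of that slide from the poly(I:C) arrays at 3 h. No water array at 3 h thus shared a side of a slide with them. Treatment cannot be told apart from side or slide at 3 h, which limits every difference from water at 3 h given here. Falls of at least 8-fold had a median difference from water of 1.23 log2 at 3 h and -2.68 log2 at 24 h. Falls of any size had medians of 0.002 log2 at 3 h and -0.85 log2 at 24 h. These differences share arrays with the course. Among the rises, 10.3% of all, 27.6% of those of at least 4-fold, 33.3% of those of at least 8-fold and 23.8% of the 21 of at least 16-fold were above the water range at 3 h. At 24 h all 21 were above it.

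The medians per array describe the levels of the probes that these arrays chose. The 262 probes that rose at least 4-fold had a median log2 signal of -0.77, -0.45 and -0.80 on the 3 arrays at 3 h and of 1.86, 2.03 and 2.06 at 24 h. The 194 probes that fell at least 4-fold had medians of 0.083, 0.070 and 0.17 at 3 h and of -2.67, -2.82 and -2.68 at 24 h. For 15 °C water the medians lay between -1.27 and -0.76 for the probes that rose and between -0.82 and -0.51 for those that fell.

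**Figure D4:**
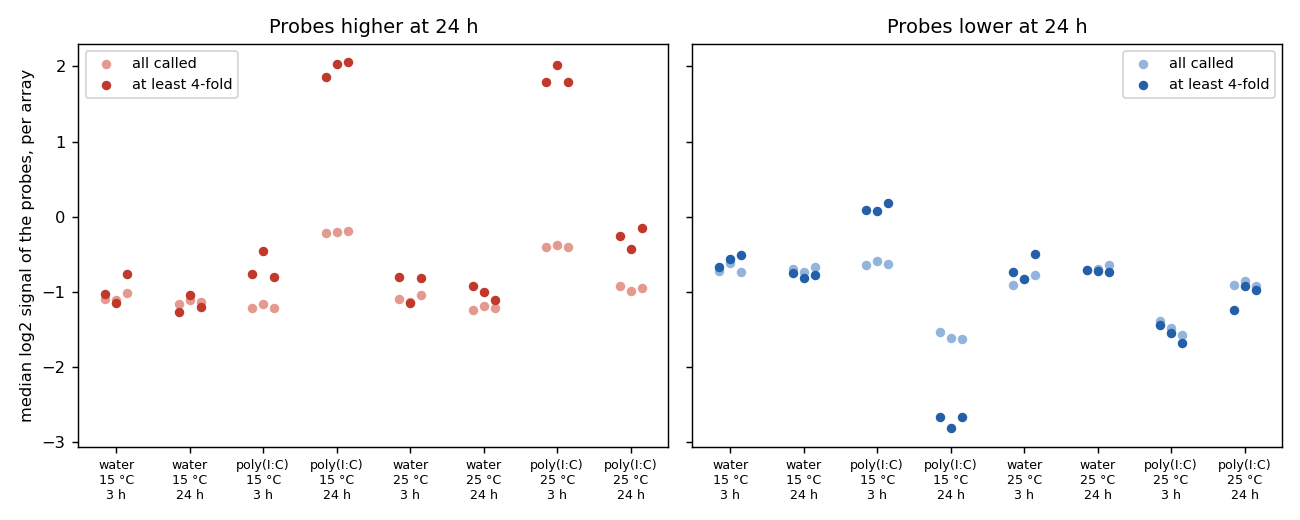
Median log2 signal, per array, of the probes called higher (left) and lower (right) at 24 h than at 3 h in poly(I:C) fish at 15 °C, for all called probes (pale) and those changed at least 4-fold (dark), in all 8 groups. The probes that rose at least 4-fold had medians near 2 in the 24 h poly(I:C) arrays at 15 °C and the 3 h ones at 25 °C, and below 0 in the other groups.

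Some probes crossed the detection limit. A set of 242 probes failed the background criterion on every array at 3 h and passed it on all 3 at 24 h, and 12 did the opposite. Of the 242, 141 were called higher, where 19.1% of all tested probes were, with a median bound of 1.51-fold and 9 at 4-fold or more. Of the 12, all were called lower, where 18.2% of all tested probes were, with a median bound of 4.59-fold. The detection pattern that chose both sets comes from the same arrays as these calls. On the 3 h water arrays at 15 °C 124 of the 242 were well above background on all 3 arrays, and on the 24 h ones 5 were. The count of 242 goes together with the larger share of probes well above background on replicates 1 and 2 at 24 h, and the part of that share in the count was not tested. At 25 °C 162 of the 242 were well above background on all 3 poly(I:C) arrays at 3 h. The share of all probes well above background was 87.7% to 91.1% on those arrays. It was 88.8% to 92.5% on the 3 h water arrays at 15 °C and 78.4% to 83.9% on the 24 h ones. The counts of 162, 124 and 5 thus also go together with that share, and its part in them was not tested.

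The question of how far this course belongs to poly(I:C) and how far to the time after either treatment was addressed with the water arrays. In water at 15 °C 123 probes (0.919% of those tested) changed between 3 h and 24 h by the same test, 9 rising (0.0673%) and 114 falling (0.852%), against 37.3% in poly(I:C) fish. At an unadjusted p under 0.05 the water count was 1761 and the poly(I:C) count 5999. Of the 114, 46 (40.4%) were also among the probes that fell in poly(I:C) fish, which is 1.89% of those, and 28 (24.6%) were among those that rose. Of all tested probes 18.2% fell and 19.1% rose in poly(I:C) fish. Both courses used the same spread for each probe, and these shares do not allow for that. Of the 9, 5 also rose. Across all tested probes the changes in water and in poly(I:C) fish had a Pearson r of -0.02 (Spearman -0.07). The count in water ran from 63 to 262 when 1 array was left out, and was 262, 135 of them higher, without replicate 1 at 3 h. It was 69 without replicate 2 and 65 without replicate 3 at 24 h, and 63 without replicate 3 at 3 h. These water arrays came from 2 slides, and with a slide term in the fit 88 probes were called, 20 higher and 68 lower. Only 40 of the 123 were among these 88.

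The difference between both courses at 15 °C was called for 3652 probes (27.3%), of which 2058 (15.4%) had the more positive and 1594 (11.9%) the more negative change in poly(I:C) fish. With a slide term in the fit 3041 probes were called, 2674 of them among the 3652. A side term gave 2906 calls, 2557 of them among the 3652. The 2560 probes that rose had a median change of -0.09 log2 in water and of 0.82 log2 after poly(I:C). The 2431 that fell had medians of -0.04 log2 and -0.92 log2. Because the difference holds the poly(I:C) arrays that chose these probes, the water values are the part that is separate from the choice. Of the 18 probes that fell at least 16-fold, 5 were called lower in water (27.8%, against 0.852% of all tested probes).

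Probe CUST_6259_PI426483990 (contig JFC12526_1_code) had the most positive difference between both courses. It moved from -0.79, -0.24 and 1.23 at 3 h to 3.25, 5.28 and 4.88 at 24 h after poly(I:C) (log2 signal). Water arrays at 15 °C moved the other way, from 1.42, 2.44 and 1.84 at 3 h to -0.08, 0.08 and -0.24 at 24 h. The groups overlapped in neither treatment. The change was 4.40 log2 (SE 0.56) after poly(I:C) and -1.98 log2 (SE 0.56, limma adjusted p = 0.11) in water, and the difference was 6.38 log2 (SE 0.79, limma adjusted p = 7e-06). At 25 °C the probe was lower at 24 h than at 3 h in both treatments. It stood at 4.20 ± 0.63 and then 1.27 ± 0.69 after poly(I:C), and at 3.63 ± 0.72 and then -1.66 ± 0.57 in water (SD, n = 3).

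Probe CUST_12677_PI426483990 (contig JFC08711_1_code) failed the background criterion on all 3 h arrays and stood at -0.56, 0.20 and -0.19 at 24 h after poly(I:C), at least 19.9-fold higher. The fitted difference between the courses was 6.11 log2 (SE 1.83, limma adjusted p = 0.018). Its size is not fully measured, since 4 of the 6 water arrays at 15 °C also failed the background criterion, and it was 2.73 log2 after normexp correction (limma adjusted p = 0.035). It was lost without replicate 1 of water at 24 h (5.22, limma adjusted p = 0.052), without replicate 3 of that group (5.28, limma adjusted p = 0.052) and when only the 4 groups at 15 °C were fitted (limma adjusted p = 0.066). Its water values had the same shape as those of CUST_11467_PI426483990, with -1.39 on replicate 3 at 3 h and -1.34 on replicate 2 at 24 h and -6.45 to -7.03 on the others. Over all 24 arrays the median size of the difference between both probes was 0.24 log2 (CUST_11467_PI426483990 minus CUST_12677_PI426483990 ran from -0.77 to 3.21, the highest on replicate 3 at 3 h after poly(I:C) at 15 °C), a pair noticed after their values were seen.

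Probes CUST_7933_PI426483990 (contig JFC02466_1_code) and CUST_294_PI426483993, whose target is a database sequence, had the most negative differences. CUST_7933_PI426483990 went from 5.83, 5.67 and 5.18 at 3 h to -1.45, -1.87 and -1.32 at 24 h after poly(I:C), a change of -7.11 log2 (SE 0.24, limma adjusted p = 2.4e-13). CUST_294_PI426483993 went from 6.0, 5.96 and 5.44 to -1.22, -1.69 and -0.91, a change of -7.07 log2 (SE 0.24). The difference of their log2 signals, the first minus the second, lay between -0.43 and -0.098 on all 24 arrays, a pair noticed after their values were seen. CUST_7933_PI426483990 in 15 °C water was at 0.37 ± 0.24 at 3 h and -0.37 ± 0.16 at 24 h (SD, n = 3). The probe thus stood above water at 3 h and below it at 24 h, by 5.19 log2 (SE 0.24) and -1.18 log2 (SE 0.24, limma adjusted p = 0.00064).

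In poly(I:C) fish at 25 °C many of the probes called at 15 °C ran the other way. The compared arrays of both courses are different ones. Each probe's spread was taken from all 24 arrays for both, so their calls are not fully separate. The shares of all tested probes given beside the overlaps do not allow for this. At 25 °C 3200 probes rose and 2767 fell between 3 h and 24 h, 44.6% of those tested (23.9% rising and 20.7% falling, and 3916 calls with a slide term, as its 24 h arrays lay on 2 slides). Of the 2560 probes that rose at 15 °C, 1268 (49.5%) fell at 25 °C and 269 (10.51%) rose, while 20.7% and 23.9% of all tested probes did. The 1268 are 45.8% of the probes that fell at 25 °C. Of the 2431 that fell at 15 °C, 1248 (51.3%) rose at 25 °C and 265 (10.9%) fell, and the 1248 are 39.0% of the probes that rose at 25 °C. Across all tested probes, which are not independent and share their labelling and scaling, the changes at both temperatures had a Pearson r of -0.40 (Spearman -0.41).

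**Figure D5:**
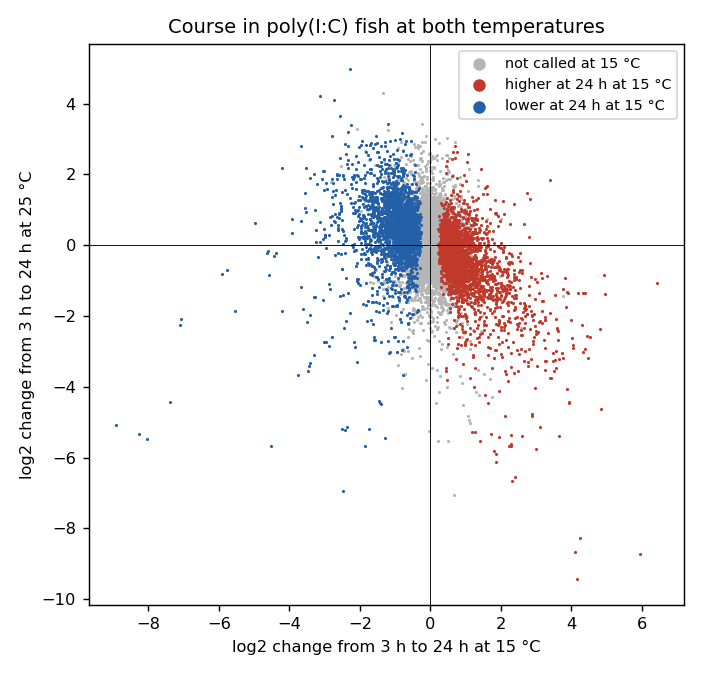
Log2 change from 3 h to 24 h in poly(I:C) fish at 25 °C (vertical axis) against that at 15 °C (horizontal axis), 1 point per tested probe, coloured by the call at 15 °C. Most probes that rose at 15 °C lie below 0 at 25 °C and most that fell lie above 0, whereas most of the 18 falls of at least 16-fold at 15 °C lie below 0 at 25 °C as well.

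The opposite direction was most frequent among the strong rises. Of the 262 probes that rose at least 4-fold at 15 °C, 221 fell at 25 °C (84.4%) and 4 rose, with a median change of -1.83 log2 there, against 0.04 log2 for all tested probes. Their median log2 signal was -0.68 at 3 h and 2.0 at 24 h at 15 °C, and 1.91 at 3 h and -0.33 at 24 h at 25 °C. Of the 194 that fell at least 4-fold, 83 rose at 25 °C (42.8%) and 43 fell (22.2%). Of the 18 that fell at least 16-fold, 10 fell at 25 °C too (55.6%) and 1 rose.

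The difference between the courses at 25 °C and 15 °C was called for 6512 probes (48.7%), of which 3443 (25.7%) had the more positive and 3069 (22.9%) the more negative change at 25 °C. With median scaling this balance turned to 2890 and 3777, and with normexp correction it was 1975 and 1482. The poly(I:C) arrays of both temperatures lay on different slides, and each course was taken within its own temperature. At 25 °C the 3 h arrays and replicate 1 at 24 h shared 1 side of 1 slide. Replicates 2 and 3 at 24 h lay on the other side of another slide. The sides were thus divided over the times the opposite way to 15 °C. With a slide term in the fit 5286 probes were called, 5083 of them among the 6512. A side term gave 5524 calls here and 5340 in the course at 25 °C. The part of the sides in the opposite direction was not tested.

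Probe CUST_11992_PI426483990 (contig JFC28148_1_code) had the most negative fitted difference. At 15 °C it failed the background criterion on every 3 h array and stood at 1.26, -0.53 and -0.69 at 24 h (log2 signal), at least 22.8-fold higher. At 25 °C it was at 0.55, 1.94 and 2.91 at 3 h and below that criterion on every 24 h array. The difference of -14.7 log2 (SE 0.83) is not fully measured for that reason, and in water it was well above background on 1 array of all 12. Probe CUST_13312_PI426483990 (contig JFC03172_1_code) showed the same exchange of times and passed the background criterion on all 12 poly(I:C) arrays, with -2.07 ± 1.08 at 3 h and 2.11 ± 0.31 at 24 h at 15 °C and 5.0 ± 0.56 and -4.43 ± 0.49 at 25 °C (SD, n = 3). Its difference was -13.6 log2 (SE 1.26). After normexp correction the order of both probes turned, with -7.22 log2 for CUST_11992_PI426483990 and -10.7 log2 for CUST_13312_PI426483990.

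Probe CUST_5622_PI426483990 (contig JFC18874_1_code) had the most positive difference. It fell at 15 °C from 0.27, -0.36 and -0.08 at 3 h to -3.01, -4.03 and -2.51 at 24 h, a change of -3.13 log2 (SE 0.32, limma adjusted p = 2.8e-07). At 25 °C it rose from -4.24 ± 0.32 to -0.03 ± 0.24 (SD, n = 3). In all 4 water groups it stood between -0.07 and 0.38 on average, so its low levels were those 24 h after poly(I:C) at 15 °C and 3 h after it at 25 °C. Probe CUST_9137_PI426483990 (contig JFC06955_1_code) had the same shape, at 0.66 ± 0.19 and -1.61 ± 0.48 at 15 °C and -4.64 ± 0.58 and 0.33 ± 0.06 at 25 °C (SD, n = 3), with 2 of the 3 arrays at 25 °C and 3 h passing the background criterion.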

How the data were processed

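The scanner output of 24 arrays gives linear spot intensity with the background already removed, per the file headers, and was deposited without scaling between arrays. Feature Extraction is version 10.7.3.1 in those headers and 9.5.3.1 in the submitters' processing notes. The table of log2 values that the authors deposited, made by a method not given in the sources used here, had the scale and direction of the values used here (once each probe was shifted by a constant, 100% lay within 0.02 log2). Its centring is unknown, and its column medians ran from -0.16 to 0.11.

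Control spots and spots marked as outliers (2 to 22 per array) were left out, log2 processed signals were averaged over the spots of each probe, and the array's 75th percentile (348.1 to 863.5 units) was subtracted. Of 14481 probes 13377 were tested, namely those that every array of 1 or more of the 8 groups showed well above background. limma 3.58.1 in R 4.3.3 (lmFit, eBayes) fitted the 8 group means to all arrays (residual degrees of freedom 16, prior 2.65). Benjamini-Hochberg adjustment ran over all tested probes within a comparison, and a call needed an adjusted p under 0.05. The script was tested on simulated data. No array pair held identical values. The number of arrays limits the precision.

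The courses from 3 h to 24 h in poly(I:C) fish at 15 °C, in water at 15 °C and in poly(I:C) fish at 25 °C were compared, with the difference of the first from each of the others. Named probes were, for the first course and both differences, the 2 largest positive and the 2 largest negative among called probes (for the course also without overlap of the groups, and with probes at background entering by their bound). For a bound the dim side of each array was taken at the probe's own signal or at the dimmest signal still well above background, whichever was higher. The comparison, lists and rules were chosen with earlier results of these data known. Without gene names, 19 gene lists (186 entries) could not be used.

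Replicate numbers did not pair the samples at 15 °C after poly(I:C), where deviations of same-numbered arrays correlated at 0.09, -0.08 and -0.04. In water at 15 °C they correlated at 0.26, -0.11 and -0.33. At 25 °C after poly(I:C) the values were 0.15, 0.14 and 0.17, and each array matched best with the one of its own number. The main fit used no pairing at either temperature, and replicate number entered only as an alternative block. Alternatives were quantile and median scaling, normexp on the median spot and background signals (offset 50, in place of the mean spot signals that had been planned), the deposited table, other filters, another prior, fewer samples, slide and replicate blocks, each array left out, stricter thresholds and, added after the data were seen, the side of the slide.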

Additional observations from a re-analysis of the deposited data

Results flagged for a closer look

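The course from 3 h to 24 h in poly(I:C) fish at 15 °C differed from another group's course in tests of the difference itself (limma, adjusted p under 0.05). From that in water at 15 °C it differed for 3652 probes. The log2 differences of the named probes were 6.38 for CUST_6259_PI426483990, 6.11 for CUST_12677_PI426483990, -6.37 for CUST_7933_PI426483990 and -6.33 for CUST_294_PI426483993.

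From the course at 25 °C it differed for 6512 probes. The log2 differences, 25 °C minus 15 °C, were 7.34 for CUST_5622_PI426483990, 7.24 for CUST_9137_PI426483990, -14.7 for CUST_11992_PI426483990 and -13.6 for CUST_13312_PI426483990.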

How the results depend on the processing

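No named probe changed direction under any alternative. After normexp correction, 2245 probes were called in the course at 15 °C after poly(I:C), 15 in that in water, 3014 in that at 25 °C, 1224 in the difference from water and 3457 in the difference from 25 °C. With a change of at least 2-fold required, the counts were 2022 for the course, 71 for water, 2377 at 25 °C and 2159 for the difference from water. At an adjusted p under 0.01 the water count was 44 and the difference from water was called for 2228 probes. The water count was 41 in a fit of its own groups alone, and the 25 °C count was 3916 with the slide as a block. With 1 array left out, the counts ran from 4268 to 4395 for the course, 63 to 262 in water, 5091 to 5779 at 25 °C, 3141 to 3561 for the difference from water and 6011 to 6471 for that from 25 °C. At least 4131 of the 4991 calls remained each time. With the replicate block 4893, 123, 5866, 3615 and 6432 probes were called in that order, and it changed no call of a named probe. Median scaling gave 2860 higher and 2164 lower for the course, and 2652 higher and 3312 lower at 25 °C, where the main counts were 3200 and 2767. The difference from 25 °C then had 2890 higher and 3777 lower. It moved the median difference from 25 °C over all probes from 0.0055 to -0.16 log2. The cause of these changes was not tested. Sides of the slide were compared after the data were seen. Signal over background limits the count of 242 probes detected at 24 h and not at 3 h after poly(I:C) at 15 °C. It also limits all sizes given as bounds.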

Other observations

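The 20 probes with 10 spots each gave a measure of the error within an array. Over the 6 arrays the median SD between the spots of 1 probe was 0.057 log2. Their median SD between arrays was 0.18 log2 for the 3 h group and 0.11 log2 for the 24 h group. Of these probes 17 were tested and 7 were called between 3 h and 24 h, where 37.3% of all tested probes were.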
